A study of Mus musculus with 6 samples.

Results

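Metallothioneins and the proteins that sense and move zinc are described here by 5 genes, Mt1, Mt2, Mtf1, Slc30a1 and Slc39a10, in mouse iPSC constructs with and without intermittent compressive force (ICF). The genes were chosen by symbol with earlier results of the same comparison known, and each symbol matched 1 of the 50686 gene identifiers in the count files. All 5 were among the 16729 genes with enough counts to be tested. Because the choice used this comparison, their levels are given as a description and no p-value is attached to them. The gene lists used further below were also chosen with earlier results of these data known, and their p-values are to be read with that limit.

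The cells were iPSCs reprogrammed from gingival fibroblasts of the mouse, maintained on feeder cells that were removed before embryoid bodies were formed, exposed to retinoic acid and then attached to gelatin-coated dishes. Loading was done in medium without serum, where the ICF group (3 samples) received 1.5 g/cm2 at a frequency of 0.23 Hz for 24 h and the control group (3 samples) was not loaded. All other steps were shared, retinoic acid included, so the comparison is of load against no load at a single time point. The labels number donors 1 to 3 in each group, the study's text speaks of independent experiments, and the number is called the replicate below.

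Metallothioneins are small cysteine-rich proteins that bind zinc and copper and buffer the free metal in the cell. When free zinc rises, the transcription factor MTF-1, encoded by Mtf1, binds metal response elements in DNA and switches on Mt1, Mt2 and Slc30a1, the gene of the zinc exporter ZnT1 in the plasma membrane. Slc39a10 encodes ZIP10, an importer that brings zinc into the cytosol and whose gene MTF-1 is known to repress in other cells. Metallothionein genes are also known to respond to other metals, oxidative stress and glucocorticoids, and the genes of those responses are given below for this reason.

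The start regions of Mt1, Mt2 and Slc30a1 are shown because the metal response element lies in such regions and these 3 genes were the ones described as higher with ICF. Sequences are from RefSeq on GRCm38.p6, read 5′ to 3′ on the strand of the gene, and capitals mark matches to the core element TGCACNC or TGCGCNC on either strand. The RefSeq start is counted as 1 and the base before it as -1. It can differ from the gene coordinates given further below, which are from GENCODE: Mt2 starts at 94172618 here and at 94172664 there.
Mt1, 250 bases before the start, chr8:94178839-94179088, plus strand: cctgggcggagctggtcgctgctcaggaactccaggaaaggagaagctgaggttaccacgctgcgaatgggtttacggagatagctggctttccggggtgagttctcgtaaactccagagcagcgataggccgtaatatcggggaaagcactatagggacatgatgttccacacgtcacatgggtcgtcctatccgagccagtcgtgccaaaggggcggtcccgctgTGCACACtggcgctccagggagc
Mt1, first 30 bases, chr8:94179089-94179118, plus strand: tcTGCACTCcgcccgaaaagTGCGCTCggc
Mt2, 250 bases before the start, chr8:94172368-94172617, plus strand: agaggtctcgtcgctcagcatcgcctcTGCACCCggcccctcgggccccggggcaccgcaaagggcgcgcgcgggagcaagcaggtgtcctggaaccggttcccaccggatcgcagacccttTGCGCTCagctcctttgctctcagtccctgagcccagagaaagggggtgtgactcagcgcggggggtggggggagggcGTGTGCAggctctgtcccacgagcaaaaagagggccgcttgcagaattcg
Mt2, first 30 bases, chr8:94172618-94172647, plus strand: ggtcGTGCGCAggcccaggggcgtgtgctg
Slc30a1, 250 bases before the start, chr1:191906531-191906780, plus strand: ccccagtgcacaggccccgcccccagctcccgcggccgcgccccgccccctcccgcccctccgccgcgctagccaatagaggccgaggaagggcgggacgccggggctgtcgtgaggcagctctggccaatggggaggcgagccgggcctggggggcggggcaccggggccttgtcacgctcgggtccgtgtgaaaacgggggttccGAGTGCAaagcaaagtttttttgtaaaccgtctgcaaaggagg

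In windows of 300 bases, from 250 before the start to 50 after it, Mt2 held 4 matches, Mt1 held 3 and Slc30a1 held 2. Of all 32851 windows in the RefSeq table, 25.7% held at least 1 match, 7.11% at least 2, 1.97% at least 3 and 0.517% at least 4. The matches of Mt1 lay close to the RefSeq start, at -23 to -17, 3 to 9 and 21 to 27, all on the strand of the gene. Matches more than 50 bases past that start were not searched for, so counts and positions hold for this window and this start only. Those of Mt2 were spread over the window, from -223 to -217 and -128 to -122 on the gene's strand, and at -50 to -44 and 5 to 11 on the opposite strand. Slc30a1 had both of its matches on the opposite strand, at -43 to -37 and 31 to 37, the latter beyond the bases printed above. The window of Mtf1 and both windows of Slc39a10 held no match, which says only that these letters are not in these windows. Those of Slc39a10, at 46853569 to 46853868 and 46925727 to 46926026, do not cover the GENCODE start of this minus-strand gene at 46892852. The window of Mtf1, at 124802299 to 124802598, likewise lies downstream of its GENCODE start at 124802104.

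The same element was present in some other metallothionein and zinc exporter genes, and in listed genes outside these families. Slc30a4 and Slc30a10 each had 3 matches in their window, although 2 of those of Slc30a10 overlap on opposite strands, and Mt3 and Mt4 had 1 each. Slc30a2 had 2 matches, whereas the exporter genes Slc30a6, Slc30a7 and Slc30a9 had none. Outside these families, Csrp1 and Gclm had 3 matches in 1 window, and Atp7a, Tfrc and Selenow had 2, which overlap in Tfrc and Selenow. The antioxidant response element TGACNNNGC, bound by the oxidative stress factor NRF2, had 1 match in Mt2 at -79 to -71 and 1 in Slc30a1 at -82 to -74, and 12.4% of all windows held at least 1. A window was found for 61 of the 75 genes on the lists used below, and Gclc and Ndrg1 were among those without one.

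**Figure D1:**
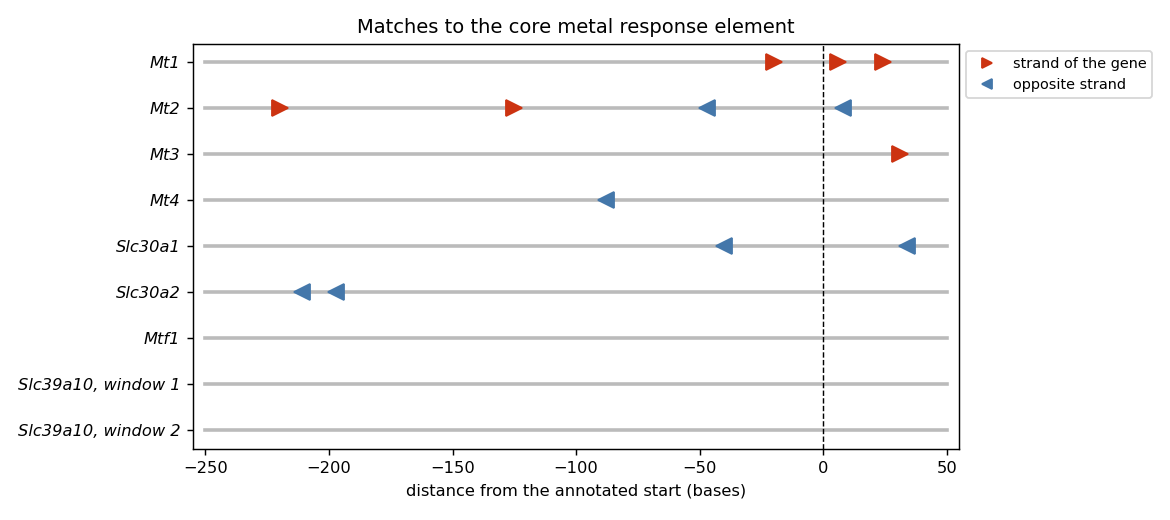
Positions of matches to the core metal response element along windows of 300 bases, in bases from the RefSeq start (dashed line). Red triangles are matches on the strand of the gene and blue triangles on the opposite strand. The window of Mt2 has 4 and that of Mt1 has 3, whereas the windows of Mtf1 and Slc39a10 have none.

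RNA sequencing measured mRNA of whole constructs, with 28711166 to 34194413 counts per sample on genes. ICF replicate 3 stood apart, since multiples of 4 made up 89.0% of its counts above 0, compared with 20.3% to 21.5% elsewhere. It had counts in 20802 genes against 24340 to 24889. Its total may therefore exceed the number of separate reads, which was not tested. Replicate 3 of both groups also differed from replicates 1 and 2 across genes, so counts and values without it are given beside the results they change. The pluripotency factor Pou5f1 was high in both groups, at 841 ± 57.2 CPM (counts scaled to the size of each library by the TMM method; SD, n = 3) in the control and 817 ± 70.4 with ICF. None of 7 pluripotency markers, 6 neural markers or 4 tested feeder fibroblast markers passed the edgeR test, with summed levels of 2680 to 3103, 122 to 131 and 14.7 to 18.5 CPM in the control and 2566 to 2863, 119 to 129 and 14.5 to 19.8 CPM with ICF. Of 8 mesenchymal markers Col1a1 was higher (log2 fold change 0.75, SE 0.20, edgeR adjusted p = 0.022), and of 5 endoderm markers Sox17 was lower (-0.34, SE 0.09, edgeR adjusted p = 0.045). An unadjusted p under 0.05 was found for 1 pluripotency, 3 neural and 0 feeder markers, beside 4277 of all 16729 genes tested. DESeq2 called 1, 1 and 0, and over all genes it called 877 higher and 1071 lower. With the replicate block, Dppa5a was called lower among the pluripotency markers (-0.29, edgeR adjusted p = 1.2e-05), Nes (0.49, edgeR adjusted p = 0.00065) and Map2 (0.35, edgeR adjusted p = 0.0073) higher and Tubb3 lower (-0.23, edgeR adjusted p = 0.0025) among the neural markers, and Col1a1, Col1a2 (0.61, edgeR adjusted p = 1e-06) and Twist1 (0.39, edgeR adjusted p = 0.0054) higher among the mesenchymal markers. The block also called Gata6 higher among the endoderm markers (0.19, edgeR adjusted p = 0.0061) and none of the feeder markers. Over all genes it called 14.6% higher and 15.3% lower. The log2 fold changes given here are from the fit without the block. Without replicate 3 of both groups, 3 pluripotency markers were called lower, 1 neural marker higher and 1 lower, 2 mesenchymal markers higher and 1 lower, 1 endoderm marker higher and 1 lower, and 0 feeder markers. That fit called 14.6% of all genes higher and 15.6% lower. The mesenchymal list summed to 370 to 427 CPM in the control and 435 to 451 with ICF, and the endoderm list to 353 to 371 and 347 to 387. The feeder markers Fap and Lum were at or near 0, with at most 4 counts in any sample. In bulk RNA, fewer cells of a type and less RNA per cell cannot be told apart, and the part of cell makeup in the results below was not tested.

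With ICF, mRNA of the metallothioneins Mt1 and Mt2 and of the zinc exporter Slc30a1 was more than doubled, mRNA of the importer Slc39a10 was nearly halved, and that of the sensor Mtf1 was 1.12-fold that of the control. By the edgeR test over all genes at an adjusted p under 0.05, 3 of the 5 genes were called higher and 1 lower, beside 3.47% of all tested genes called higher and 4.38% called lower (7.85% in all). With the replicate number as a block the counts were again 3 and 1, beside 14.6% called higher and 15.3% called lower (29.9% in all). Mtf1 was called higher as well when replicate 3 of both groups was left out, beside 14.6% called higher and 15.6% lower (30.1% in all). The selection used this comparison, so nothing follows from these counts.

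Mt2, the metallothionein with the larger change, lies on chromosome 8 (94172664 to 94173568, GRCm38, ENSMUSG00000031762). Its level was 111, 98.2 and 81.8 CPM in control replicates 1, 2 and 3 and 332, 362 and 349 CPM with ICF. Every ICF sample was about as high as the others, all were above every control, and control replicate 3 was the lowest of the 6. The means were 96.9 ± 14.5 and 348 ± 14.6 CPM (SD, n = 3), 3.59-fold higher with ICF. This is a log2 fold change of 1.84 (SE 0.13), and the differences within same-numbered pairs were 1.58, 1.88 and 2.09. Among 11925 genes whose counts averaged 100 or more, this rise ranked 4.

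Mt1, which lies next to Mt2 on the same strand of chromosome 8 (94179082 to 94180327, ENSMUSG00000031765), followed the same pattern at a lower level. Control replicates 1, 2 and 3 had 88.7, 76.7 and 65.2 CPM, and the ICF samples 221, 238 and 207 CPM. The groups did not overlap, and control replicate 3 was again the lowest. Means of 76.8 ± 11.8 and 222 ± 15.3 CPM (SD, n = 3) gave a 2.89-fold difference, or 1.53 on the log2 scale (SE 0.14), with 1.31, 1.63 and 1.67 in the pairs and rank 9 among rises.

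Together the 2 metallothioneins accounted for 200, 175 and 147 CPM in control samples, and for 553, 599 and 557 CPM after loading. The proportion between them was not fixed. Control samples had 1.25, 1.28 and 1.26 counts of Mt2 for each count of Mt1 and ICF samples had 1.51, 1.52 and 1.68, so the groups did not overlap and ICF replicate 3 had the highest ratio. The mean went from 1.26 ± 0.02 to 1.57 ± 0.10 (SD, n = 3). Per length, the ratio of RPKM (reads per kilobase of transcript, scaled to library size) went from 2.67 to 3.33 when all annotated exon bases were used, and from 1.36 to 1.69 by the length of the transcript with the consensus coding sequence. The annotation of Mt1 includes transcripts that keep introns, which is why its exon length of 1246 bases exceeds the 549 bases of that transcript, against 588 and 511 bases for Mt2.

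Slc30a1 (chromosome 1, 191906767 to 191913247, ENSMUSG00000037434), the exporter gene, had 16.6, 16.9 and 12.8 CPM in control replicates 1, 2 and 3 and 35.8, 34.3 and 39.1 CPM with ICF. The groups did not overlap, and replicate 3 gave both the lowest control and the highest ICF sample. The means of 15.4 ± 2.27 and 36.4 ± 2.45 CPM (SD, n = 3) differed 2.36-fold, or by 1.24 on the log2 scale (SE 0.14). The pairs gave 1.10, 1.02 and 1.61, and the rise ranked 16.

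Slc39a10 (chromosome 1, minus strand, 46807544 to 46892852, ENSMUSG00000025986), the importer gene, went the other way. It stood at 162, 155 and 185 CPM without load and at 90.3, 85.0 and 92.2 CPM with it. Every ICF sample was below every control, and the highest control was replicate 3. From 167 ± 15.8 to 89.2 ± 3.73 CPM (SD, n = 3) the ratio of ICF to control was 0.533, a log2 fold change of -0.91 (SE 0.08), with -0.84, -0.87 and -1.01 in the pairs. It ranked 119 among falls.

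Mtf1 (chromosome 4, 124802104 to 124849800, ENSMUSG00000028890), the gene of the zinc sensor, changed least. Its control samples had 28.6, 29.96 and 31.5 CPM and its ICF samples 33.0, 33.3 and 34.2 CPM. The ranges came close but did not overlap, as was also the case with a higher ICF group for 15.6% of all genes tested. The mean of 33.5 ± 0.660 CPM was 1.12-fold that of the control, 30.04 ± 1.44 CPM (SD, n = 3), and the log2 difference was 0.16 (SE 0.04).

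Without replicate 3 of both groups the log2 fold changes were 1.73 for Mt2, 1.47 for Mt1, 1.07 for Slc30a1, -0.85 for Slc39a10 and 0.18 for Mtf1. Over 15 alternative fits they ranged from 1.73 to 1.95 for Mt2, 1.42 to 1.65 for Mt1, 1.07 to 1.31 for Slc30a1, -0.96 to -0.83 for Slc39a10 and 0.12 to 0.19 for Mtf1. These ranges describe the same libraries on which the genes were chosen.

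**Figure D2:**
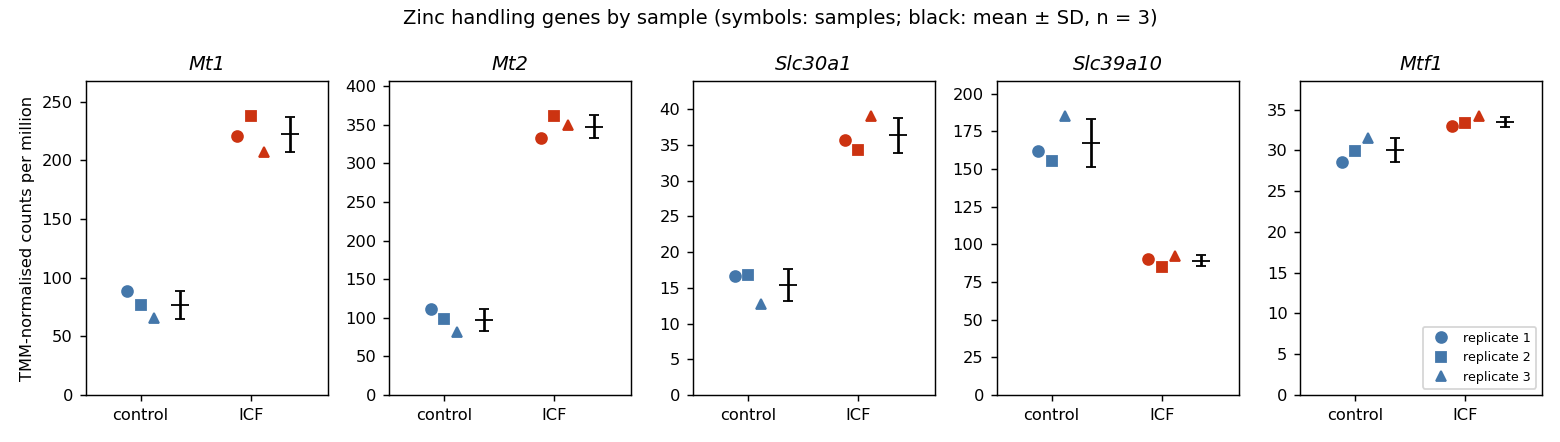
Levels of the 5 genes in each sample, in TMM-normalised CPM on linear axes that start at 0, with a separate scale for each gene. Circles, squares and triangles are replicates 1, 2 and 3, blue for the control and red for ICF, and black marks show the mean ± SD (n = 3); the groups are far apart for Mt1, Mt2, Slc30a1 and Slc39a10 and close for Mtf1.

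Reads from other genes could add to these counts only to a limited degree as far as the annotation shows. No stretch of 75 bases of the longest transcript of any of the 5 genes occurred on the same strand in another gene. On the opposite strand, the antisense gene Gm45774 covers 73.5% of the exon bases of Mt2, and it had 3 to 11 counts in each sample. 1700034H15Rik covers 8.9% of Slc30a1, with 8 to 12 counts in the control and 20 to 29 with ICF, against 368 to 528 and 1132 to 1242 for Slc30a1 itself. 1110065P20Rik covers 8.1% of Mtf1, and its 368 to 508 counts stand beside 837 to 1145 for Mtf1. The libraries were strand-specific, but whether the counting used the strand is not given in the sources used here, so the 2 genes of such a pair are uncertain where they overlap.

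The other metallothioneins and the genes around them were read next, since Mt1 and Mt2 sit in a cluster on chromosome 8. Mt3, the metallothionein known from the brain, had 1.54, 1.50 and 1.71 CPM in the control and 1.73, 2.09 and 1.52 CPM with ICF, and the groups overlapped (log2 fold change 0.17, SE 0.14, edgeR adjusted p = 0.64). Mt4, known from stratified epithelium, had 7 to 17 counts per sample (0.26, SE 0.29, edgeR adjusted p = 0.72). Neither had an unadjusted p under 0.05, and DESeq2 called 0 of these 2. On either side of the cluster, Bbs2, a gene of the ciliary BBSome, differed by 0.00 (SE 0.07, edgeR adjusted p = 1), and Nup93, a nuclear pore gene, by 0.13 (SE 0.07, edgeR adjusted p = 0.30). Gm45774, Gm39228, Rpl10-ps5 and Gm45804, the remaining annotated genes within 100 kb, had mean counts of 8.0, 1.7, 4.3 and 4.0 and were too low to test.

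Among the other genes of the zinc exporter (ZnT) family, 8 of 9 had enough counts, 1 rose and 1 fell, beside 3.47% and 4.38% of all genes. Their median log2 fold change was -0.01, beside 0.003 over all tested genes. Slc30a2, which encodes ZnT2 and loads zinc into vesicles, rose from 1.54, 1.57 and 2.54 CPM to 4.23, 4.06 and 6.90 CPM. The groups did not overlap, replicate 3 was the highest of each, and the log2 fold change was 1.42 (SE 0.33, edgeR adjusted p = 0.019). The call of Slc30a2 was lost without control replicate 1 (edgeR adjusted p = 0.094) or control replicate 2 (edgeR adjusted p = 0.10). Slc30a9, which encodes a transporter of mitochondrial zinc, fell from 78.8, 77.3 and 74.7 CPM to 58.4, 54.9 and 57.0 CPM. It was lower in every ICF sample than in every control (-0.44, SE 0.03, edgeR adjusted p = 0.0043). With the replicate as a block, 2 genes of this family were called higher and 2 lower, beside 14.6% and 15.3% of all genes. The added genes were Slc30a4 (0.25, edgeR adjusted p = 0.0062 with the block and 0.26 without) and Slc30a10, a gene of at most 23 counts per sample (-1.56, edgeR adjusted p = 0.0087 and 0.19). Both log2 fold changes are from the fit without the block. Without replicate 3 of both groups, 2 were called higher and 1 lower, beside 14.6% and 15.6% of all genes. Slc30a8, the exporter gene of insulin granules, had no count in any sample.

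Of the other zinc importers, 12 of 13 were tested and none passed the edgeR test without the block, with a median of 0.02. At an unadjusted p under 0.05 there were 2, beside 4277 of all 16729 genes, and DESeq2 called 0. Slc39a14, the member of this list with the highest count, encodes a carrier of zinc, iron and manganese. It had 111, 110 and 112 CPM in the control and 121, 125 and 123 CPM with ICF. Although these groups did not overlap, the log2 fold change of 0.14 (SE 0.01) had an edgeR adjusted p of 0.13, and 0.029 with the block. Slc39a8, which encodes another carrier of zinc and manganese, was the second importer called with the block (0.25, SE 0.08, edgeR adjusted p = 0.0053 with the block and 0.099 without). Without replicate 3 of both groups, 2 importers were called higher, beside 14.6% of all genes. Slc39a10 thus stood beside 12 tested importer genes with log2 fold changes from -0.84, for the sparsely counted Slc39a5, to 0.25.

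**Figure D3:**
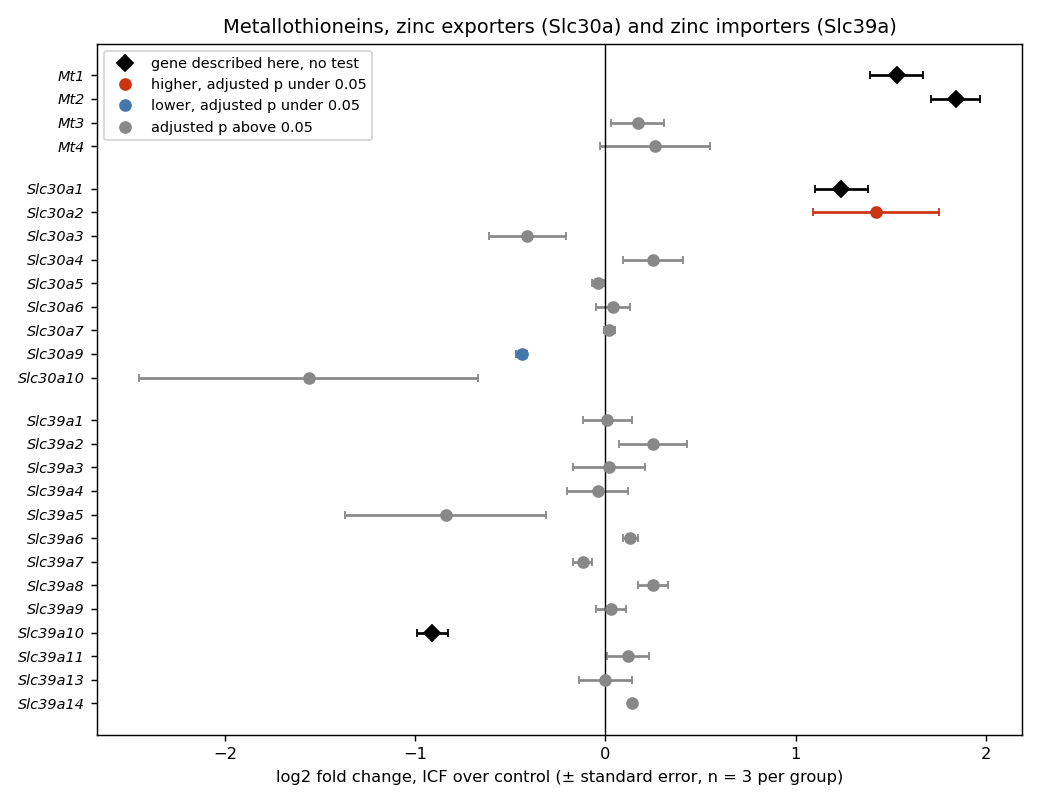
Log2 fold change of ICF over control, with its standard error (n = 3 per group), for the metallothioneins and the zinc exporter and importer genes that were tested. Black diamonds are genes chosen with this comparison known and carry no test. Slc30a2 (1.42, red) was higher and Slc30a9 (-0.44, blue) lower among the others, whose grey points did not pass. The lists of these others were also chosen with earlier results of these data known.

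RPKM allows for length, but the order of different genes on it can depend on the length used. Ranked by RPKM over all exon bases, Slc39a10 was the highest importer gene in the control at 27.5 ± 2.60 (SD, n = 3). Its lowest sample of 25.5 was above the highest Slc39a1 sample of 21.5. Slc39a1 encodes ZIP1, an importer of the plasma membrane. With ICF, Slc39a1 stood first at 20.6 ± 3.06 and Slc39a10 second at 14.6 ± 0.613, and their samples did not overlap. This order depended on the length used for Slc39a14. Slc39a14 followed at 10.5 ± 0.0785 in the control and 11.6 ± 0.152 with ICF. By the consensus coding transcript, Slc39a10 was also the highest importer gene in the control, at 30.5 ± 2.88 RPKM above 22.6 ± 0.168 for Slc39a14 and 20.4 ± 0.928 for Slc39a1. With ICF it then took rank 3 at 16.2 ± 0.679 RPKM, below Slc39a14 at 24.9 ± 0.326 and Slc39a1 at 20.6 ± 3.06. As a share of the summed RPKM of all importer genes, Slc39a10 made up 28.7%, 27.6% and 31.3% in control samples, and 17.6%, 16.0% and 18.7% after loading. By the consensus coding transcript the mean share was 24.5% and 14.1%.

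By all exon bases, Slc30a1 stood sixth of the exporter genes in the control at 2.94 ± 0.433 RPKM (SD, n = 3), below Slc30a7 at 3.62 ± 0.0434 and far above Slc30a3 at 0.530. With ICF it took rank 3 at 6.94 ± 0.468 RPKM. There its samples overlapped those of Slc30a6 above it (7.05 ± 0.142) and Slc30a4 below it (5.98 ± 0.714), so it could be ordered against neither on this scale. By the consensus coding transcript it stood sixth in the control as well, at 2.94 RPKM, and took rank 4 with ICF at 6.94 RPKM. On that scale its samples lay below those of Slc30a6 (10.1 ± 0.204) and Slc30a9 (9.94 ± 0.311) and overlapped those of Slc30a4 (6.01 ± 0.717). Slc30a5, which with Slc30a6 supplies zinc to the secretory pathway, was the highest in both groups on either scale, at 10.6 ± 0.355 and 10.3 ± 0.169 RPKM by all exon bases. The share of Slc30a1 in the summed RPKM of the exporter genes was 8.7%, 8.8% and 6.8% in control samples, and 17.0%, 16.8% and 17.8% after loading. By the consensus coding transcript the mean share was 4.8% and 11.0%.

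**Figure D4:**
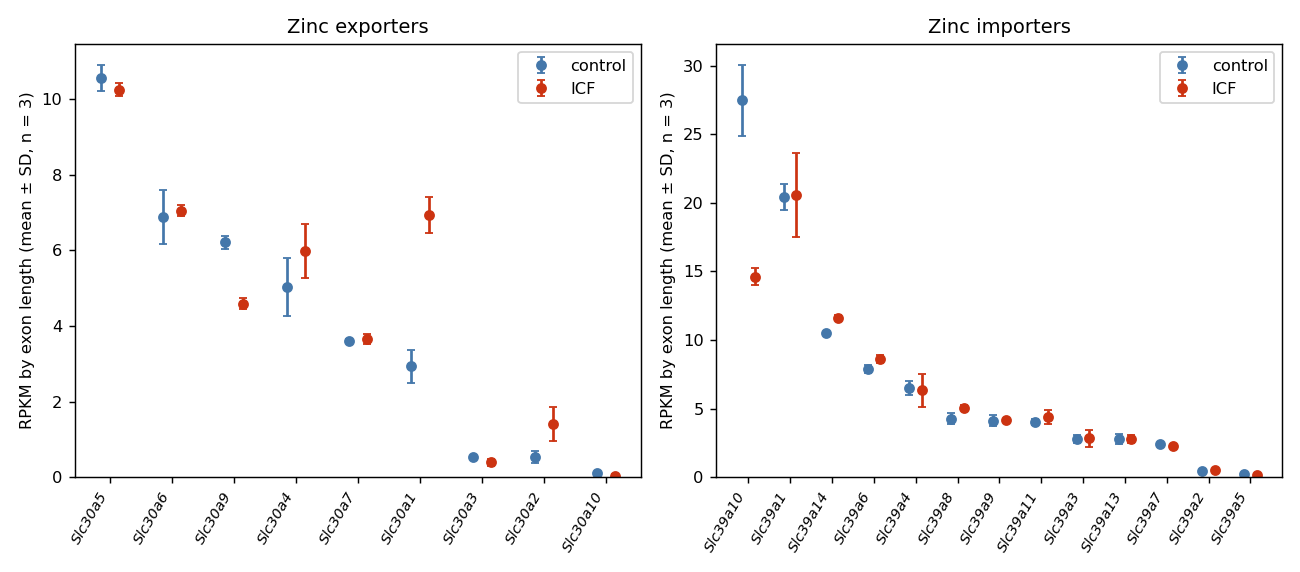
RPKM by exon length of the tested zinc exporter and importer genes, mean ± SD (n = 3), control in blue and ICF in red, on linear axes from 0, with genes in the order of the control. Slc30a1 moved from 2.94 to 6.94 and Slc39a10 from 27.5 to 14.6, and Slc39a1, at 20.4 and 20.6, had overlapping bars.

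Beyond the zinc genes, lists of metal and stress responses were read over the same fit. In all 9 lists, with the 5 genes described above left out, 68 of 70 genes were tested, 4 rose and 6 fell, where 3.47% of all tested genes rose and 4.38% fell. With the replicate as a block 13 rose and 9 fell, beside 14.6% and 15.3% of all genes. Without replicate 3 of both groups 15 rose and 9 fell, beside 14.6% and 15.6% of all 16893 genes tested there (30.1% in all).

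Of 5 other genes linked to MTF-1, only Ndrg1 passed, and it fell. Ndrg1, a gene known to respond to low oxygen and to metals such as nickel, went from 107, 106 and 72.2 CPM to 28.9, 28.5 and 38.1 CPM. Replicate 3 was the lowest control and the highest ICF sample, and the groups did not overlap (log2 fold change -1.58, SE 0.23, edgeR adjusted p = 0.0014; -1.89 without replicate 3 of both groups). Gclc, which encodes a subunit of the enzyme that starts glutathione synthesis, differed by 0.11 (SE 0.12, edgeR adjusted p = 0.52), and the selenoprotein gene Selenoh by 0.03 (SE 0.15, edgeR adjusted p = 0.89). The median of this list was 0.03. Csrp1, Selenow, Gclc and Selenoh did not pass, and with the block Csrp1 was called higher. When replicate 3 of both groups was left out, 1 gene was called higher and 1 lower, beside 14.6% and 15.6% of all genes.

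None of 11 copper genes rose and 2 fell, beside 3.47% and 4.38% of all genes. Slc31a1, the gene of the copper importer CTR1, was at 83.4 ± 3.10 CPM in the control and 70.1 ± 3.44 CPM with ICF (SD, n = 3; log2 fold change -0.25, SE 0.05, edgeR adjusted p = 0.048). Atp7b, which encodes a copper-exporting ATPase, was at 6.65 ± 0.916 and 4.44 ± 0.349 CPM (-0.58, SE 0.13, edgeR adjusted p = 0.046). Both calls were lost when any one of control replicates 1 and 2 and ICF replicates 1, 2 and 3 was left out, at edgeR adjusted p from 0.079 to 0.19 for Slc31a1 and from 0.066 to 0.20 for Atp7b. Slc31a1 was also lost with the looser filter on counts (edgeR adjusted p = 0.060). The median of the copper list was 0.02.

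Of 10 iron genes, 1 rose and 1 fell, with a median of -0.02, against 2 and 2 with the block and 2 and 1 without replicate 3 of both groups. The shares of all genes were 3.47% and 4.38%, 14.6% and 15.3% with the block, and 14.6% and 15.6% without replicate 3. Fth1, the ferritin heavy chain gene, rose from 567 ± 31.6 to 722 ± 19.3 CPM (SD, n = 3; 0.35, SE 0.05, edgeR adjusted p = 0.013), and its call was lost without control replicate 1 or 2 (edgeR adjusted p = 0.066 and 0.089). Tfrc, the transferrin receptor gene, fell from 356 ± 12.4 to 268 ± 31.6 CPM (-0.41, SE 0.10, edgeR adjusted p = 0.025). It was lost without control replicate 1 or 2 or ICF replicate 1 or 2 (edgeR adjusted p from 0.066 to 0.12).

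None of 9 target genes of NRF2 passed the edgeR test, with a median of 0.11, while 4 were called higher with the block, and 5 were higher and 1 lower without replicate 3 of both groups. Of all genes, the block called 14.6% higher, and the fit without replicate 3 called 14.6% higher and 15.6% lower. The block called Nqo1 (0.40, edgeR adjusted p = 6.6e-05), Gsr (0.18, edgeR adjusted p = 0.0066), Gclm (0.16, edgeR adjusted p = 0.016) and Srxn1 (0.18, edgeR adjusted p = 0.028). Their log2 fold changes are from the fit without the block, where the edgeR adjusted p ranged from 0.077 to 0.40. At an unadjusted p under 0.05 there were 2, beside 4277 of all 16729 genes, and DESeq2 called 0. The 2 of this list with the highest counts were Txnrd1, the thioredoxin reductase gene (0.05, SE 0.10, edgeR adjusted p = 0.76), and Hmox1, the heme oxygenase gene (-0.13, SE 0.11, edgeR adjusted p = 0.41). Hmox1 is known to respond to cadmium and other metals. Its level was 178 ± 13.8 CPM in the control and 163 ± 17.3 CPM with ICF (SD, n = 3).

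Of 5 heat shock genes 2 rose, beside 3.47% of all genes, and the median of the list was 0.51. Leaving out replicate 3 of both groups gave 4 called higher, beside 14.6% of all genes. Hsph1, an HSP110 gene, rose from 385, 425 and 507 CPM to 597, 601 and 672 CPM, with replicate 3 the highest in each group (0.51, SE 0.13, edgeR adjusted p = 0.021). Its call was lost without control replicate 1 or 2 or ICF replicate 1 (edgeR adjusted p = 0.081, 0.11 and 0.058). Hspa1b, an HSP70 gene, rose from 4.50 ± 0.293 to 7.95 ± 0.538 CPM (SD, n = 3; 0.82, SE 0.08, edgeR adjusted p = 0.0068; 0.052 without control replicate 2). Hspa1b has a near-identical copy, Hspa1a, and reads that fit both were left out by the counting, so its level is uncertain.

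Of 7 glucocorticoid target genes none rose and 1 fell, beside 3.47% and 4.38% of all genes, with a median of -0.03. DESeq2 and the block each called 2 lower, and 3 were lower without replicate 3 of both groups. The block called 15.3% of all genes lower, and the fit without replicate 3 called 15.6% lower. Dusp1, which encodes a phosphatase of MAP kinases, fell from 32.2 ± 3.12 to 19.9 ± 0.687 CPM (SD, n = 3; -0.70, SE 0.09, edgeR adjusted p = 0.0033). Per1, a clock gene that the block and DESeq2 added, was lower in every ICF sample than in every control (-0.38, SE 0.13, edgeR adjusted p = 0.060, and 2.4e-05 with the block; DESeq2 adjusted p = 0.016). Sgk1, a kinase gene, and Klf9, a transcription factor gene, were the others with the highest counts and differed by -0.03 and -0.08 (edgeR adjusted p = 0.82 and 0.50).

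The genes most like Mt1, Mt2 and Slc30a1 were named by the root mean square difference between log2 CPM profiles over the 6 samples, each centred on its own mean, among genes averaging 100 counts or more. For Mt1 the nearest of 11924 genes was Mt2 (0.166), then Tnnt2, a cardiac troponin gene (0.184), and Slc30a1 (0.198). For Mt2 they were Mt1 (0.166), Tnnt2 (0.213) and Zfp365, a zinc finger gene (0.252). Tnnt2 went from a mean of 2.13 to 6.47 CPM and Zfp365 from 17.6 to 51.6 CPM. For Slc30a1 they were Sp6, a transcription factor gene (0.136), Ahnak2 (0.178) and Mt1 (0.198), with Sp6 at 4.03 and 8.26 CPM and Ahnak2 at 4.94 and 10.8 CPM. These profiles share the same 6 libraries, and likeness here is a description.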

How the data were processed

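RNA sequencing covered 3 control and 3 ICF samples. Read filtering by the authors used Trimmomatic, alignment used HISAT2 and counting used HTSeq, which drops a read with more than 1 alignment or gene. The deposited values are these counts, not normalised. The submitters' processing notes name the builds hg38 and GRCm38 and bcl2fastq 2.19, and other versions are not given in the sources used here. Reads aligning to more than 1 place were 29.5% to 31.3% in the HTSeq summary rows, which named no gene and were left out.

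Gene names and coordinates came from GENCODE M21 on GRCm38 (50376 of 50686 identifiers). Differences were tested over all genes with edgeR 4.0.16 in R 4.3.3 (glmQLFit, glmQLFTest, TMM, filterByExpr, Benjamini-Hochberg adjustment, threshold 0.05). Of 16729 genes, 1313 (7.85%) were called. The procedure was tested on simulated data, drawn with independent samples and without a replicate effect or stepped counts. How it performs on libraries such as these was not tested. Means and SDs are of TMM-normalised CPM, and standard errors come from the SDs of log2 CPM with a prior count of 2. Log2 fold changes printed beside a p-value with the block are from the fit without it. The p-values set the difference between groups against the spread between these few samples only, a spread that edgeR estimates with information from all genes.

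The 5 genes and all lists were chosen with earlier results of these data known. In each list every gene past the threshold was named, or, with fewer than 2, also the 2 with the highest counts, besides the nearest profiles and the genes within 100 kb of Mt1 and Mt2. The sample labels give donor numbers, and deviations from the group means correlated at 0.36, 0.36 and 0.66 in same-numbered samples (11925 genes). Control replicate 1 with ICF replicate 2 reached 0.55, and control replicate 2 with ICF replicate 1 reached 0.4. Replicate 3 with replicate 1 or 2 gave -0.58 to -0.47. Deviations from a group mean cancel out within the group, so these negative values are in part fixed by the others and add little. By its correlation of 0.66 only replicate 3 was set apart, and the pairing of replicates 1 and 2 rests on the labels. The reported fit used no block, and the block by number was an alternative. Alternatives were DESeq2 1.42.0, RLE size factors, filters of 1 count in any sample or 10 in every sample, the replicate block, each sample left out, replicate 3 of both groups left out, and the counts of ICF replicate 3 divided by 4. Lengths by the consensus coding transcript, and the block without replicate 3, were added after the data were seen.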

Additional observations from a re-analysis of the deposited data

How the results depend on the processing

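The fold changes of Mt1, Mt2, Slc30a1, Slc39a10 and Mtf1 kept their sign under all 15 alternatives, which is no sign of stability since the genes were chosen on these libraries. The number of genes called moved more, and the cause was not tested. Genes called higher, 580 in the reported fit, were 877 with DESeq2, 2445 with the replicate block, 1354 with DESeq2 and the block, 2466 without replicate 3 of both groups and 2162 without it and with the block. Genes called lower, 733, were 2561, 1666, 2627 and 2359 with the block, DESeq2 and the block, replicate 3 left out, and both. Leaving out 1 sample gave 85 to 724 higher and 215 to 928 lower, with the lowest counts (85 and 215) without control replicate 2. On the 9 lists, 4 genes were higher, against 13 with the block, 7 with DESeq2 and the block, 15 without replicate 3 of both groups, 12 without it and with the block, and 0 to 7 with 1 sample left out. Genes on the lists that were lower, 6, were 3 to 7 with 1 sample left out. The Mt2 to Mt1 ratio of 1.57 with ICF and 1.26 in the control was 3.33 and 2.67 by exon length and 1.69 and 1.36 by the consensus coding transcript, a length that also moved Slc39a10 from rank 2 to 3 and Slc30a1 from rank 3 to 4 with ICF. Of the remaining values, 349 did not move, 56 moved and 23 fell short of the threshold. No value reversed.

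With 3 samples in a group, and counts of ICF replicate 3 in steps of 4, changes of low genes such as Slc30a10, Mt3 and Mt4 are poorly resolved. The samples give mRNA at a single time point, and neither zinc nor protein was measured in these files.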
